A study of Mus musculus with 54 samples.

Results

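The mitochondrial ribosomal proteins were the 76 rows of the deposited gene table whose name begins with Mrpl or Mrps and a digit, out of 55487 rows. Names containing "-ps", which mark pseudogenes, were left out and took 4 further rows. All 76 passed the expression filter, which asked for 1 TPM or more in 5 or more libraries, as did 12742 genes in all. TPM is a length-scaled share of a library's transcripts, so levels of different genes can be set side by side. RNA came from male DBA mice aged 14 weeks, in which 70 to 80 tubules staining for the glucose transporter SGLT2 were cut from kidney by laser capture for each sample. Non-diabetic mice (Ins2+/+) and Akita mice (Ins2 Akita/+), whose mutant insulin gene causes insulin-deficient diabetes, were either Sglt1+/+ or Sglt1-/-. Treatment lasted 2 weeks with vehicle, with the SGLT2 inhibitor dapagliflozin at 10 mg/kg diet, or, in Akita wild-type mice alone, with the GLP1 receptor agonist semaglutide at 3 nmol/kg body weight per day under the skin. The 48 libraries came from 5 non-diabetic wild-type vehicle, 5 non-diabetic knockout vehicle, 4 non-diabetic wild-type dapagliflozin and 6 non-diabetic knockout dapagliflozin samples, and from 6 Akita wild-type vehicle, 6 Akita knockout vehicle, 5 Akita wild-type dapagliflozin, 6 Akita knockout dapagliflozin and 5 Akita wild-type semaglutide samples. Which animal a sample came from is not in the labels. The p-values therefore reflect variation from sample to sample, part of which may be technical, and are too small where samples share an animal. In such bulk samples fewer cells of a type and less RNA per cell cannot be told apart.

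The mitochondrial ribosome translates the few messenger RNAs of the mitochondrial genome, all of which encode subunits of the oxidative phosphorylation complexes. Its ribosomal RNAs are made inside the organelle, while every protein of its large subunit (Mrpl genes) and small subunit (Mrps genes) is encoded in the nucleus and imported. Many of these proteins descend from bacterial ribosomal proteins and others exist only in mitochondria. Early proximal tubule cells are rich in mitochondria, because sodium-driven uptake of glucose and other solutes consumes much ATP.

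In wild-type libraries Slc5a1, the gene of SGLT1, ran from 0.814 to 4.29 TPM, and in knockout libraries from 0 to 0.123 TPM, without overlap. Slc5a2, which encodes SGLT2, was present in every library (82.5 to 275 TPM), and the summed TPM of 8 proximal tubule markers ran from 850 to 2143. Markers of other cells were lower. Summed TPM ran from 37.8 to 164 over 5 markers of the later S3 segment of the tubule, from 20.4 to 161 over 7 thick limb markers, from 11.7 to 252 over 7 distal and collecting duct markers, from 21.9 to 110 over 11 endothelial markers, from 4.72 to 181 over 8 leukocyte markers and from 1.62 to 36.7 over 8 podocyte markers. Cldn16, a defining thick limb marker, was listed at 0 in every library of 3 groups. Nuclear protein-coding genes held 5.98% to 14.1% of a library's TPM and mitochondrial ribosomal RNA 14.2% to 31.7%. Another row, the highest of the tested genes, averaged 493155 TPM over the 48 libraries. A TPM value therefore also depends on how much of a library such abundant rows hold. Their separate parts in the TPM of other genes were not tested.

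The median transcript of the mitochondrial ribosome was near the level of the median gene, and member means ran from 1.11 to 25.5 TPM. The median member had a mean of 3.67 TPM over the 48 libraries, against 3.22 TPM for all tested genes, 22.3 TPM for 80 cytosolic ribosomal protein genes and 21.9 TPM for 36 nuclear genes of respiratory complex I. The 49 large-subunit members had a median of 3.77 TPM and the 26 small-subunit members of 3.57 TPM. Members with a bacterial counterpart (45 genes) had a median of 3.92 TPM, and mitochondria-specific members (30 genes) of 3.53 TPM. Mrps18a and Mrps18b were counted as mitochondria-specific, although they descend from a bacterial protein, as given below. The 10 members at 10 TPM or more held 35.4% of the members' summed mean TPM, and 7 members averaged under 2 TPM.

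The highest member was Mrpl12, the stalk protein of the large subunit, at 25.5 ± 5.50 TPM (mean ± SD over all 48 libraries). Mrps21, a small-subunit protein with a bacterial counterpart, stood at 24.3 ± 7.72 TPM. Next came Mrps5, the counterpart of bacterial S5, at 19.1 ± 6.55 TPM. The values of these 3 genes overlap across libraries, so their order is not fixed. Mrpl38 (17.1 ± 4.39 TPM) and Mrpl52 (13.96 ± 5.94 TPM), both large-subunit proteins found only in mitochondria, completed the 5 highest. At the other end stood Mrpl19 (1.11 ± 0.843 TPM), Mrpl47 (1.50 ± 1.08 TPM), Mrps16 (1.70 ± 0.843 TPM), Mrpl49 (1.75 ± 0.801 TPM) and Mrpl35 (1.8 ± 0.942 TPM). Of these only Mrpl49 has no bacterial counterpart. Mrpl19 reached 1 TPM in 17 of 48 libraries and Mrpl47 in 28.

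**Figure D1:**
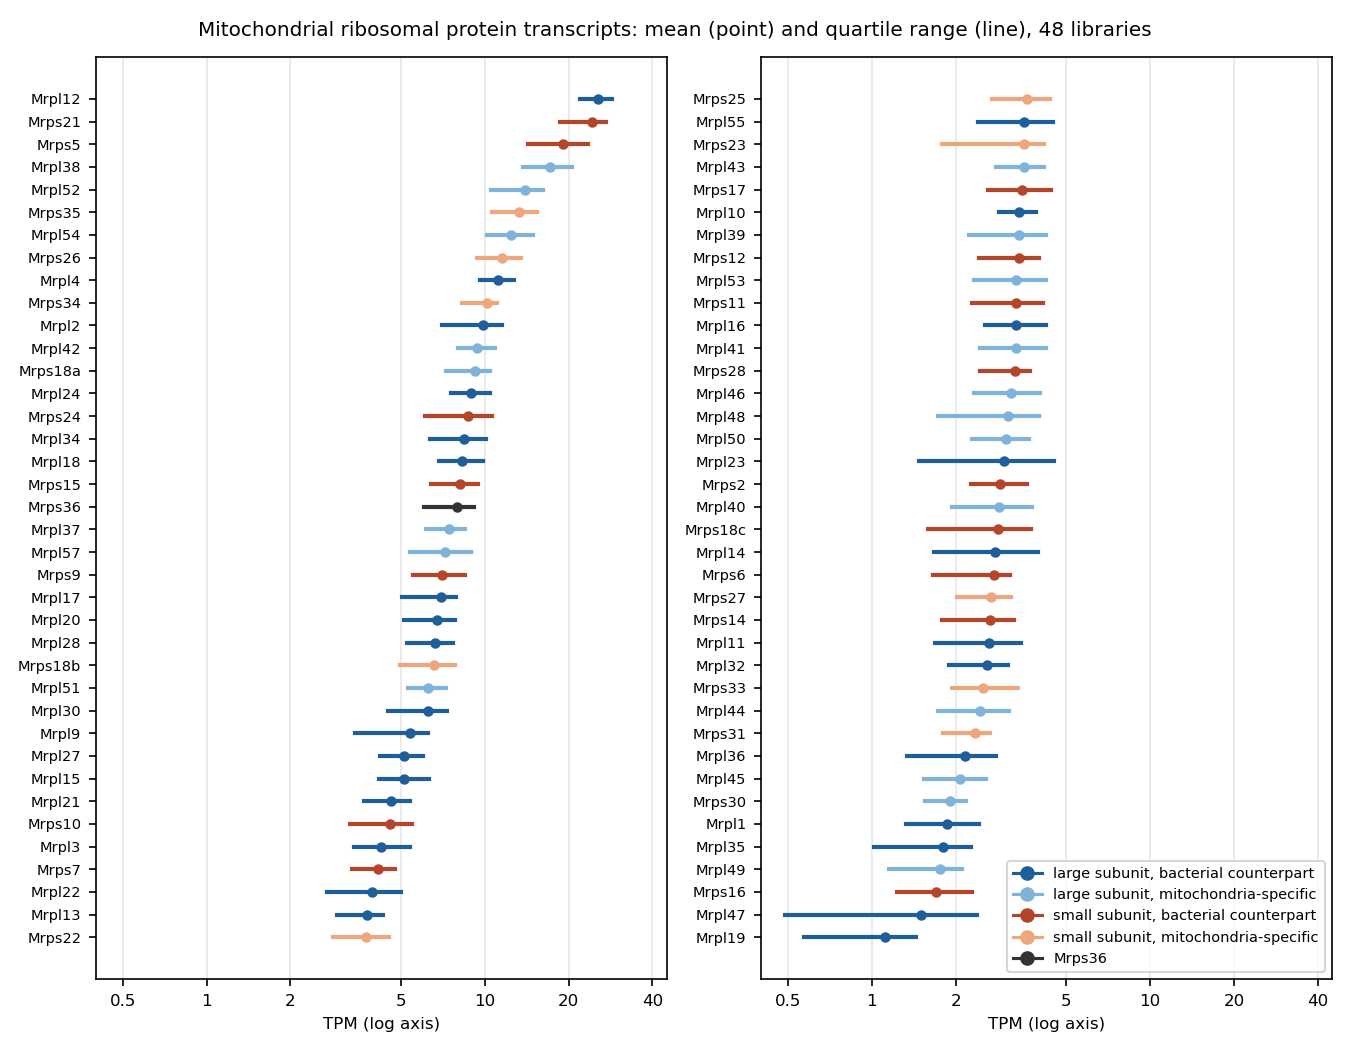
Mean TPM (points) and range from the lower to the upper quartile (lines) of the 76 members over 48 libraries, ordered by mean on a logarithmic axis and coloured by subunit and origin. Mrpl12 at 25.5 TPM and Mrpl19 at 1.11 TPM mark the ends, and both subunits are spread along the whole range.

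The Mrps18 genes are 3 paralogs that descend from 1 bacterial small-subunit protein. Mrps18a, whose protein sits in the large subunit, averaged 9.22 TPM. Mrps18b, a small-subunit protein, averaged 6.55 TPM. Mrps18c, the small-subunit protein closest to the bacterial one, averaged 2.85 TPM and was listed at 0 in 1 library. Mrps36 carries a ribosomal name but encodes a subunit of the 2-oxoglutarate dehydrogenase complex, an enzyme of the citric acid cycle, and averaged 7.91 ± 2.68 TPM.

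On GRCm38 the GENCODE annotation places Mrpl12 (ENSMUSG00000039640) at chr11:120484613-120489065, Mrpl14 (ENSMUSG00000023939) at chr17:45686322-45698495, Mrpl23 (ENSMUSG00000037772) at chr7:142532686-142540747, Mrpl55 (ENSMUSG00000036860) at chr11:59202486-59206134, Mrps22 (ENSMUSG00000032459) at chr9:98588730-98601660 and Mrps33 (ENSMUSG00000029918) at chr6:39801804-39810988. The 76 genes lie on 17 chromosomes, with 0 on X.

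Promoter windows show the DNA next to the start of the most abundant member and of 3 members whose library values are given below. They are from RefSeq on GRCm38.p6, read in the direction of the gene and 5′ to 3′, with bases inside annotated exons left out. Capitals mark letters that match one of 5 searched motifs on either strand: the NRF1 motif (given by its name), CCGGAAG (ETS), AAGATGGC (YY1), GGGCGG (SP1) and CCAAT. Matches may overlap, and a match is a description of letters, not a binding site. The windows are chr11:120484387-120484612 (plus strand) for Mrpl12, chr9:98601680-98601929 (minus strand) for Mrps22, chr6:39810989-39811186 (minus strand) for Mrps33 and chr7:28741822-28741991 (minus strand) for Mrps12.
Mrpl12: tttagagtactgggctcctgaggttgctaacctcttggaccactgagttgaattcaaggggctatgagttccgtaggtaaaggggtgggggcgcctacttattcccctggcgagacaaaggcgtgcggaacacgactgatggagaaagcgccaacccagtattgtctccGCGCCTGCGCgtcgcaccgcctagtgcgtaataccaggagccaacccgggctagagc
Mrps22: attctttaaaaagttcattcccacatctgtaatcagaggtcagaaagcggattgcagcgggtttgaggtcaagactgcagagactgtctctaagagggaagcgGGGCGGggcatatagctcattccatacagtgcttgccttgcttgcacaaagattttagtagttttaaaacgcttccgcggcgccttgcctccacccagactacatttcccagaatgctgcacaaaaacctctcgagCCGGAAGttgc
Mrps33: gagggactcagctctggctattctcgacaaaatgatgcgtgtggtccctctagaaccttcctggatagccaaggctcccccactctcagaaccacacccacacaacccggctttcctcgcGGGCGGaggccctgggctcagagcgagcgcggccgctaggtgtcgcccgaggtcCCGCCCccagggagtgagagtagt
Mrps12: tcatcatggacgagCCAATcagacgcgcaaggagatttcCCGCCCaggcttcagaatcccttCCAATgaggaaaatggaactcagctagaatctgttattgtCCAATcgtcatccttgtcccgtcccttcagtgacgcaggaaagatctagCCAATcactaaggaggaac

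The Mrpl12 window holds 1 run of the NRF1 motif. That of Mrps22 holds an SP1 match and, close to the start, an ETS match. The Mrps33 window carries SP1 matches in both orientations, and that of Mrps12 has repeated CCAAT letters with 1 SP1 match. The full 300-base windows counted below also hold an ETS match for Mrps33 and ETS and YY1 matches for Mrps12. RefSeq promoters of 300 bases, from 250 before to 50 after the start, were at hand for 67 members, for 8197 tested nuclear protein-coding genes and for 27025 genes in all. The NRF1 motif was present in 19.4% of members, 11.3% of tested genes and 4.81% of all genes. The ETS motif was found in 32.8%, 19.6% and 9.16%, and the YY1 motif in 17.9%, 5.10% and 2.85%. The SP1 letters were less frequent among members (50.7%) than among tested genes (66%) and more frequent than among all genes (36.0%). The shares with CCAAT were 38.8%, 38.4% and 37.9%. Of the 76 members, 18 (23.7%) start within 1000 bases of a protein-coding gene on the other strand that runs away from them, against 10.5% of 10407 tested nuclear protein-coding genes. Such pairs included Mrps12 with Sars2, the mitochondrial seryl-tRNA synthetase gene, 172 bases apart, and Mrpl32 with the proteasome gene Psma2, 75 bases apart.

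Summed over the 76 genes, mitochondrial ribosomal protein transcripts made up 292 to 633 TPM of a library (median 450). Sums were 361, 450, 477, 490 and 525 TPM in non-diabetic wild-type vehicle libraries and ran from 292 to 583 TPM (median 425) in Akita wild-type vehicle libraries. Akita wild-type dapagliflozin libraries had 428, 460, 473, 481 and 498 TPM, all inside the Akita vehicle range. The library values of all 9 groups lay within overlapping ranges.

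Relative to nuclear protein-coding TPM the same sum was much steadier. It held 0.379% to 0.552% of that total, and its coefficient of variation over the 48 libraries was 8.25%, against 17.7% for the summed TPM. The corresponding coefficients were 12.7% for the share of complex I genes and 12.0% for that of cytosolic ribosomal protein genes. The share had its highest group means in Akita vehicle tubules, at 0.488% ± 0.0429 (SD, n = 6) in wild type and 0.484% ± 0.0219 (SD, n = 6) in knockout. In non-diabetic vehicle tubules it was 0.461% ± 0.0218 (SD, n = 5) and 0.452% ± 0.0552 (SD, n = 5). With dapagliflozin, Akita tubules had 0.452% ± 0.0364 (SD, n = 5) in wild type and 0.450% ± 0.0440 (SD, n = 6) in knockout, and with semaglutide 0.447% ± 0.0400 (SD, n = 5). These differences are of the order of the spread within groups. Group means of the complex I share were also highest in Akita vehicle tubules, at 0.958% in wild type and 0.941% in knockout. Those of Akita dapagliflozin tubules were close, at 0.933% and 0.937%. In non-diabetic vehicle tubules the means were 0.910% and 0.801%. Among libraries of few genes, described below, Akita knockout vehicle replicates 5 and 6 had complex I shares of 1.08% and 1.03%. Akita wild-type vehicle replicates 2 and 5 had 0.725% and 1.09%. The cytosolic ribosomal protein share was highest in Akita wild-type vehicle tubules (2.78%, beside 2.41% in non-diabetic wild-type vehicle ones). The summed TPM of large-subunit genes was 1.36 to 2.12 times that of small-subunit genes, with a mean of 1.72 ± 0.174 (SD, n = 48).

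**Figure D2:**
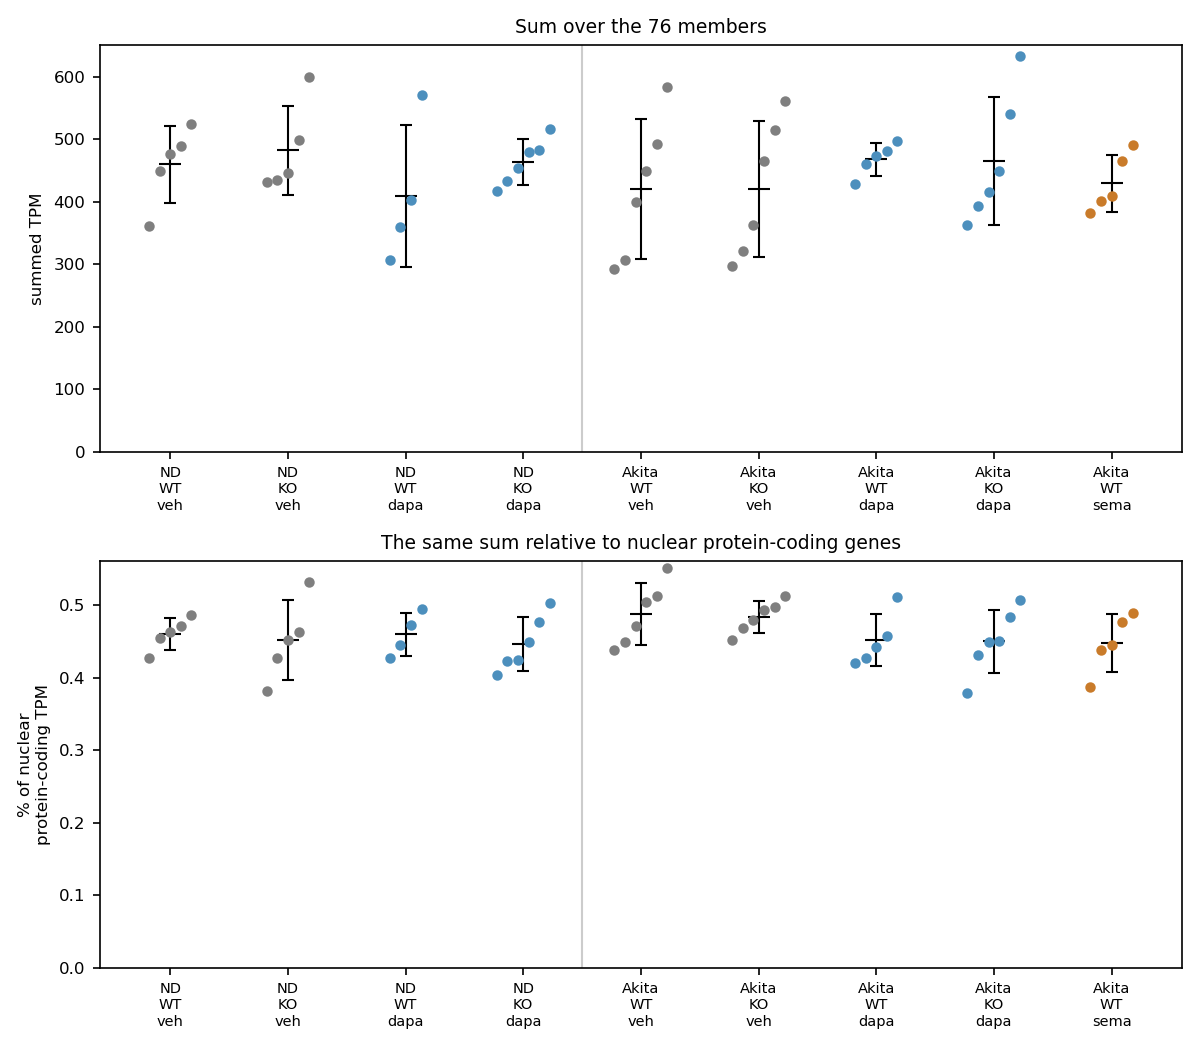
Summed TPM of the 76 members (upper panel) and the same sum as a percentage of nuclear protein-coding TPM (lower panel), 1 point per library, with group means and SD as bars. ND is non-diabetic, WT wild type, KO Sglt1 knockout, veh vehicle, dapa dapagliflozin and sema semaglutide. The sums run from 292 to 633 TPM and all groups overlap, while the percentages stay between 0.379% and 0.552%.

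Members differed in how much they varied within groups. On the log2(TPM + 1) scale used for all tests, the median SD within groups was 0.43 for the members and 0.42 for all tested genes. It was lowest for Mrps30, a large-subunit protein despite its name (0.28), and highest for Mrpl23, a protein beside the exit tunnel of the large subunit (0.85). Mrpl23 ran from 0.0393 to 6.97 TPM. A pseudogene, Mrpl23-ps1, is identical to it over 507 bases and ran from 0 to 7.04 TPM. For the 2 rows added together the SD within groups was 0.53, and the value of Mrpl23 alone is uncertain. How reads were divided between the rows was not tested. Mrps5 has a copy, Gm13328, identical at 98.4% of 1019 bases and averaging 2.13 TPM. In 15 other members with a matching pseudogene (at least 95% identity over 300 bases), the pseudogene averaged under 1 TPM. On the same strand, exons of 4 members overlap another protein-coding gene. These are Mrps34 with Nme3, Mrps24 with Urgcp, Mrps6 with Gm49711 and Slc5a3, and Mrpl53 with Gm42688. All 695 bases of the Mrpl53 transcript match Gm42688, a gene without a row in the deposited table. Exons of 20 members overlap a protein-coding gene of the other strand, among them Mrpl46 and Mrps11, which overlap each other, and Mrpl14 with Tmem63b. The labels name a strand-marking kit, but whether strand was used in quantification is not given in the sources used here.

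In none of 16 comparisons did a member pass an adjusted p of 0.05 in limma's moderated test, and the smallest adjusted p of any member was 0.0763. Values are therefore given as measured differences. In each single-group and averaged comparison the members with the lowest p in each direction are named. A difference is a log2 difference on the log2(TPM + 1) scale with the SE of the model. All genes shifted together in several comparisons, so the median of the members is set beside the median of the 12742 tested genes. Of the 48 libraries 4 had under 9000 genes at 1 TPM or more. All 4 were Akita vehicle libraries (wild-type replicates 2 and 5, knockout replicates 5 and 6), with 5.98% to 6.67% of TPM in nuclear protein-coding genes, so each comparison that uses these groups is also given without them. The share of all genes at an unadjusted p under 0.05 was not counted without these libraries, so member counts there have no background. The same comparison was repeated after rescaling each library by the median of ratios, which centres all genes near 0, and 0 members were called on that scale too. The 95% interval of a member's difference reached a median of 0.36 to either side in the comparison of Akita dapagliflozin averaged over genotypes and 0.78 in the widest interaction, so smaller differences could not be resolved.

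Diabetes was compared in vehicle-treated tubules. In wild type 0 of 76 members were called, against 0.0235% of all genes, and in knockout 0 against 0%. Averaged over both genotypes 0 were called against 0.557%. With all libraries most members, like most genes, had lower mean TPM in Akita tubules. The members' median difference was near 0 without the 4 libraries of few genes, and in the average it turned after rescaling. In wild type 14 of 76 members had a log2 difference above 0, against 25.6% of all genes. The members' median was -0.17 in wild type, beside -0.15 for all genes, and -0.17 in knockout, beside -0.24, where 19 were above 0 (18.3%). Averaged over genotypes it was -0.16 beside -0.20, with 9 members above 0 (15.6% of all genes). Without the 4 libraries 42 members were above 0 in wild type (46.8% of all genes), 35 in knockout (39.0%) and 34 in the average (40.7%), and the medians were 0.02, -0.02 and -0.01. Rescaled by the median of ratios the median turned to 0.06 in the average and to 0.12 in knockout, each with 49 members above 0, and was -0.01 in wild type, with 37 above 0. Of all genes 49.3%, 49.6% and 49.5% were above 0 there. At an unadjusted p under 0.05 wild type had 0 members higher and 7 lower, where all genes had 0.596% and 7.01%, and knockout 0 and 1, where all genes had 0.408% and 14%. In knockout there were 5 members higher and 0 lower after rescaling, beside 1005 of 12742 genes in either direction. The average had 1 member higher and 5 lower, where all genes had 0.416% and 18.1%. After rescaling it had 3 higher and 0 lower, beside 1246 of 12742 genes in either direction. Nuclear protein-coding genes held a mean of 10.0% of TPM in non-diabetic and 8.60% in Akita wild-type vehicle libraries, and 10.8% and 8.79% in the knockout ones. The median summed TPM of 7 thick limb markers was 89.0 and 38.8 in these wild-type groups and 56.4 and 48 in the knockout ones. Beside this, the summed TPM of the 5 S3 markers ran from 85.9 to 142 in non-diabetic wild-type vehicle libraries and from 37.8 to 120 in Akita wild-type ones, and 2 of the 5, Slco1a1 and Slc7a13, were called lower in the average. The part of these markers in the members' values was not tested.

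Mrpl55, a large-subunit protein with a bacterial counterpart, had the lowest p of the members with diabetes in wild type and in the average. Its TPM was 3.05, 3.70, 4.84, 5.48 and 7.76 in non-diabetic wild-type vehicle libraries, and 1.57 to 3.55 (median 2.48) in Akita wild-type vehicle libraries. Of the 6 Akita libraries 5 lay below the lowest non-diabetic one. The log2 difference was -0.74 ± 0.27 (limma adjusted p = 0.472), and -0.58 after rescaling. In knockouts the groups overlapped more, at 2.18, 3.08, 3.72, 4.48 and 5.28 TPM without diabetes and 1.24 to 5.90 TPM (median 2.92) with it. The averaged difference of Mrpl55 was -0.53 ± 0.19 (adjusted p = 0.152). Without the 4 libraries of few genes Mrpl55 had -0.63 in wild type and -0.40 in the average (limma adjusted p = 0.9999 in the average).

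Mrps22, a mitochondria-specific small-subunit protein, followed. Its TPM was 3.04, 4.29, 4.81, 4.84 and 5.04 in non-diabetic wild-type vehicle libraries and 1.26 to 5.22 (median 2.52) in Akita ones, 4 of which lay below the lowest non-diabetic library and 1 above the highest. The log2 difference was -0.58 ± 0.24 (adjusted p = 0.544) in wild type and -0.43 ± 0.17 (adjusted p = 0.174) in the average. Without the 4 libraries of few genes it was -0.36 in wild type and -0.25 in the average (limma adjusted p = 0.9999 in the average). Mrpl23 was the member furthest in the other direction, at 0.91 ± 0.50 in wild type, 0.57 ± 0.50 in knockout and 0.74 ± 0.35 in the average (adjusted p = 0.253), with the limit on its values given above. Mrpl2, a protein near the catalytic centre, had 0.23 ± 0.25 in wild type, and Mrpl20 0.19 ± 0.20 in the average. In knockouts Mrpl32, a protein whose maturation requires a mitochondrial protease, had -0.67 ± 0.28 (adjusted p = 0.301), Mrpl39 -0.51 ± 0.28 and Mrps31 0.18 ± 0.20. The interaction of diabetes with genotype gave 0 called members against 0% of all genes. Its members' median was 0.01 beside -0.08 for all genes, with 38 members above 0 (39.8%). At an unadjusted p under 0.05 there were 0 members in either direction (0.855% of all genes higher, 2.33% lower). Without the 4 libraries of few genes 36 were above 0 (44.1%) and the median was -0.02 beside -0.05. After rescaling 52 were above 0 (50.7%) and the median was 0.10 beside 0.00. On that scale 4 members were higher and 0 lower at an unadjusted p under 0.05, beside 820 of 12742 genes in either direction.

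Loss of Sglt1 was compared within vehicle-treated mice of each background. In non-diabetic mice 0 members were called against 0.0235% of all genes, 43 were above 0 (65.2% of all genes), and the median was 0.04 beside 0.10 for all genes and -0.08 after rescaling. In Akita mice 0 were called against 0.0157%, 44 were above 0 (53.0%), and the median was 0.04 beside 0.01. At an unadjusted p under 0.05 there were 2 members higher and 2 lower (0.942% and 1.01% of all genes). Without the 4 Akita libraries of few genes 40 were above 0 (56.9%) and the median was 0.01 beside 0.04. At the same threshold 2 members were then higher and 1 lower. In both backgrounds Mrpl14, which lies at the face joining the subunits and is a docking site of an assembly factor, had the lowest p among members with a negative difference. Its TPM was 3.42, 3.45, 4.04, 5.25 and 8.30 in non-diabetic wild-type libraries and 0, 2.26, 2.63, 3.16 and 4.13 in non-diabetic knockout libraries. Of the 5 knockout libraries 4 lay below the lowest wild-type one. In Akita mice it was 1.84 to 4.89 (median 3.22) in wild type and 0.418 to 3.00 (median 1.18) in knockout, where 4 of 6 knockout libraries lay below the lowest wild-type one. The log2 differences were -0.90 ± 0.37 (adjusted p = 0.981) and -0.84 ± 0.34 (adjusted p = 1). These comparisons share no library. Mrpl14 was the only member at an unadjusted p under 0.05 in the non-diabetic comparison, where all genes had 3.59% higher and 1.01% lower. After rescaling 0 members were higher and 3 lower there, beside 868 of 12742 genes in either direction.

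With dapagliflozin Mrpl14 was 0 to 5.04 TPM (median 1.40) in non-diabetic knockouts, a log2 difference of -0.22 ± 0.35 from vehicle (limma adjusted p = 1). In Akita knockouts it was 2.24 to 4.16 TPM (median 2.47), a difference of 0.68 ± 0.34 (adjusted p = 0.654). The interaction of dapagliflozin with diabetes in knockouts was 0.91 ± 0.49 for Mrpl14 (adjusted p = 0.876), so a difference between the backgrounds was not shown. Other members named by the rule were Mrpl37 (0.46 ± 0.23), Mrps2 (0.37 ± 0.22) and Mrpl47 (-0.57 ± 0.39) without diabetes. In Akita mice they were Mrpl3 (0.55 ± 0.24), a protein reaching towards the catalytic centre, Mrps31 (0.43 ± 0.19) and Mrpl32 (-0.55 ± 0.26), each with an adjusted p of 1.

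Dapagliflozin was given with and without diabetes. In non-diabetic wild type 0 members were called against 0% of all genes. The members' median was -0.20, beside -0.13 for all genes and -0.04 after rescaling, and 13 members were above 0 (29.0% of all genes). At an unadjusted p under 0.05 there were 0 members higher and 4 lower (0.714% and 3.34% of all genes). Mrpl43, a mitochondria-specific large-subunit protein, was 2.82, 3.83, 4.18, 4.65 and 5.06 TPM with vehicle and 0.996, 2.28, 2.82 and 3.50 TPM with dapagliflozin, the groups meeting at 2.82. Its log2 difference was -0.63 ± 0.24 (adjusted p = 0.981), and that of Mrpl55 was -0.67 ± 0.30. Mrpl23 (0.98 ± 0.55) and Mrpl17 (0.50 ± 0.35) lay on the other side. In non-diabetic knockouts 0 members were called against 0.00785%, 28 were above 0 (40.2%), and the median was -0.03 beside -0.06. There Mrpl46 had 0.40 ± 0.26, Mrpl43 0.33 ± 0.22, Mrps34 -0.41 ± 0.21 and Mrpl11 -0.46 ± 0.35. At an unadjusted p under 0.05 there were 0 members, where all genes had 0.989% higher and 2.89% lower. After rescaling 1 member was higher and 0 lower, beside 836 of 12742 genes in either direction.

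With all libraries most members, again like most genes, had higher mean TPM with dapagliflozin in Akita tubules. Here too the median difference was near 0 without the 4 vehicle libraries of few genes, and in the average it turned after rescaling. In wild type 0 members were called against 0% of all genes, 61 of 76 were above 0 (77.5% of all genes), and the median was 0.21 beside 0.19. At an unadjusted p under 0.05 there were 4 members higher and 0 lower (9.68% and 0.432% of all genes). In knockouts 0 were called against 0%, 57 were above 0 (74.2%), and the median was 0.12 beside 0.15, with 5 members higher and 0 lower at an unadjusted p under 0.05 (6.96% and 0.628%). Averaged over genotypes 0 were called against 0.816%, 65 were above 0 (80.8%), and the median was 0.16 beside 0.17. By subunit that average was 0.16 for the large and 0.16 for the small subunit. In the average 6 members were higher and 0 lower at an unadjusted p under 0.05, where all genes had 16.8% and 0.636%. Without the 4 libraries 42 members were above 0 in wild type (58.4% of all genes), 39 in knockout (47.6%) and 37 in the average (53.4%), and the medians were 0.02, 0.01 and -0.02. In the average 3 members were then higher and 2 lower at an unadjusted p under 0.05. After rescaling 34 members were above 0 in wild type (49.5% of all genes), 30 in knockout (49.3%) and 29 in the average (48.4%), and the medians were -0.01, -0.08 and -0.05. At an unadjusted p under 0.05 the rescaled knockout comparison had 0 members higher and 3 lower, beside 843 of 12742 genes in either direction. The rescaled average had 3 and 3, beside 1405 of 12742 genes. The direction for the members as a group thus depends on the scale and on these libraries. Nuclear protein-coding genes held a mean of 8.60% of TPM with vehicle and 10.4% with dapagliflozin in Akita wild type, and 8.79% and 10.4% in knockout. Beside this, the summed TPM of the S3 markers ran from 76.4 to 164 with dapagliflozin and from 37.8 to 120 with vehicle in Akita wild type, and 0 of the 5 were called in the average. Of 8 proximal tubule markers 1, Slc13a3, was called higher in the average. Their part in the members' values was not tested.

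Mrps33, a small mitochondria-specific protein of the small subunit, had the lowest p of the members in wild-type Akita tubules. Its TPM was 0, 1.41, 1.81, 2.11, 2.21 and 2.42 with vehicle and 2.53, 3.07, 3.29, 4.57 and 4.57 with dapagliflozin. The groups did not overlap, which among all genes held for 0.981% in this direction and for 0% to 0.942% in 1 direction of the other comparisons, and Mrps33 was the only such member in any of the 10 comparisons between 2 groups. The log2 difference was 0.87 ± 0.28 (adjusted p = 0.286), and 0.74 after rescaling. In knockouts it ran from 0.734 to 2.98 TPM (median 2.06) with vehicle and from 1.96 to 4.17 TPM (median 2.26) with dapagliflozin, overlapping widely, with a difference of 0.40 ± 0.26. The interaction with genotype was -0.47 ± 0.38, with a 95% interval from -1.23 to 0.30, so a difference between the genotypes was not shown.

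Mrps22 had nearly the same difference in both genotypes. In wild type its TPM was 1.26 to 5.22 (median 2.52) with vehicle and 3.55, 3.92, 4.50, 4.53 and 4.85 with dapagliflozin, and 5 of 6 vehicle libraries lay below the lowest treated one. In knockouts it was 2.07 to 4.18 (median 2.76) with vehicle and 2.81 to 7.70 (median 5.23) with dapagliflozin, 4 of 6 treated libraries lying above the highest vehicle one. The log2 difference was 0.55 ± 0.24 in wild type and 0.56 ± 0.23 in knockout (adjusted p = 0.648). The interaction with genotype was 0.00 ± 0.33, with a 95% interval from -0.66 to 0.67. Averaged over genotypes the difference was 0.56 ± 0.16 for Mrps22, with a value above the vehicle mean in 11 of 11 treated libraries, and 0.64 ± 0.19 for Mrps33, in 9 of 11, both with an adjusted p of 0.0763 and the smallest of any member in any comparison. After rescaling these were 0.36 (adjusted p = 0.350) and 0.50 (adjusted p = 0.266). Without the 4 libraries of few genes they were 0.38 for Mrps22 (adjusted p = 0.904) and 0.44 for Mrps33 (adjusted p = 0.839), and Mrps33 had 0.53 in wild type.

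Both averages sit close to the threshold, and single libraries move them across it. Without Akita wild-type vehicle replicate 1 both were called (Mrps22 adjusted p = 0.0455, Mrps33 0.0408). Mrps22 was called without Akita knockout dapagliflozin replicate 2 (0.0435) or 4 (0.0487). Mrps33 was called without Akita knockout vehicle replicate 1 (0.0468) or 3 (0.0496). Among all genes the same omissions raised the calls from 104 to between 187 and 378. The vehicle libraries of Mrps22 also stand in its diabetes comparison, with the opposite sign, and the 2 comparisons share them.

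Other members named in Akita tubules under dapagliflozin were of both subunits. Mrpl39, a large-subunit protein that resembles part of a tRNA synthetase, was 1.91 to 2.88 TPM (median 2.20) in knockout vehicle libraries and 2.55 to 6.22 TPM (median 4.15) in knockout dapagliflozin libraries, 4 of which lay above every vehicle library. Its log2 difference was 0.65 ± 0.27 (adjusted p = 0.648). Mrps26 had 0.57 ± 0.21 in wild type (adjusted p = 0.351). On the other side were Mrpl52 (-0.44 ± 0.32) and Mrpl32 (-0.28 ± 0.28) in wild type, Mrps25 (-0.48 ± 0.29) and Mrps18a (-0.31 ± 0.27) in knockout, and Mrpl52 (-0.30 ± 0.22) and Mrpl23 (-0.46 ± 0.34) in the average. Without the 4 libraries of few genes Mrpl52 had -0.65 in the average (adjusted p = 0.629). Mrps36, the dehydrogenase subunit, had -0.41 ± 0.18 with diabetes (adjusted p = 0.208) and 0.48 ± 0.17 with dapagliflozin in Akita tubules (adjusted p = 0.144), both averaged over genotypes.

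Semaglutide was given to Akita wild-type mice. Against vehicle 0 members were called against 0% of all genes, 48 were above 0 (70.7% of all genes), and the median was 0.06 beside 0.13, or -0.08 after rescaling. Without the 2 Akita wild-type vehicle libraries of few genes 23 members were above 0 (49.1%) and the median was -0.12 beside -0.004. At an unadjusted p under 0.05 there were then 0 members higher and 3 lower. After rescaling all libraries there were 0 and 2, beside 929 of 12742 genes in either direction. With all libraries and TPM as deposited 1 member passed that threshold, where all genes had 5.20% higher and 0.620% lower. This was Mrps12, a protein of the decoding centre. It ran from 0.999 to 3.61 TPM (median 2.86) with vehicle and stood at 2.33, 3.12, 3.54, 5.35 and 7.39 TPM with semaglutide. The groups overlapped, and the log2 difference was 0.63 ± 0.30 (adjusted p = 0.845). Mrpl22 had 0.51 ± 0.30, Mrps17 -0.36 ± 0.28 and Mrps21 -0.29 ± 0.26. Set directly against dapagliflozin, 0 members were called against 0%, 23 were above 0 (39.0%), and the median was -0.12 beside -0.06. Mrps35 (0.43 ± 0.25), Mrps18c (0.68 ± 0.44), Mrps18a (-0.54 ± 0.29) and Mrpl39 (-0.51 ± 0.29) were named, each with an adjusted p of 1. At an unadjusted p under 0.05 there were 0 members (0.659% of all genes higher, 1.95% lower). After rescaling 1 member was higher and 0 lower, beside 545 of 12742 genes in either direction.

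**Figure D3:**
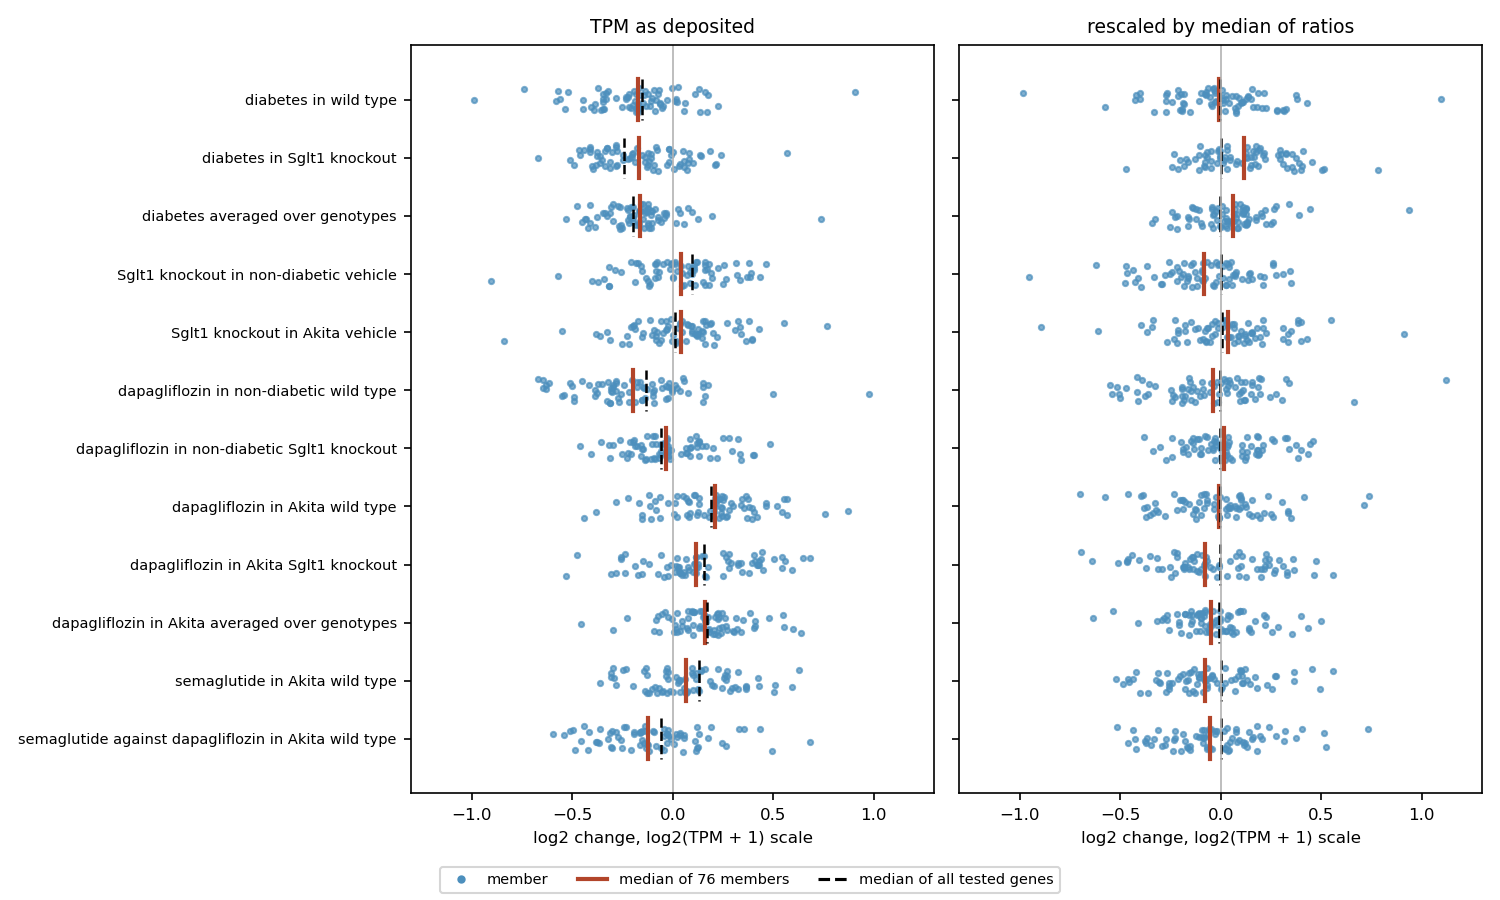
Log2 differences of the 76 members in 12 comparisons (points), with the median of the members (solid line) and of all 12742 tested genes (dashed line), for TPM as deposited (left) and after rescaling by the median of ratios (right). For dapagliflozin in Akita mice averaged over genotypes the members' median is 0.16 beside 0.17 for all genes (left). For diabetes in knockouts it is 0.12 beside -0.0006 after rescaling (right).

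Whether dapagliflozin acted differently with diabetes was tested as an interaction. In wild type 0 members were called against 0% of all genes. The median of the interaction was 0.39 beside 0.32, with 70 of 76 members above 0 (80.2% of all genes), and 0.04 after rescaling with 41 above 0 (49.9%). Without the Akita vehicle libraries of few genes 54 were above 0 (70.1%) and the median was 0.19, beside 0.19 for all genes. At an unadjusted p under 0.05 there were 10 members higher and 0 lower, where all genes had 10.9% and 0.314%, and 3 higher and 0 lower without those libraries. For Mrps22 the interaction was 1.11 ± 0.36 (adjusted p = 0.319). In knockouts 0 were called against 0%, 55 were above 0 (76.3%), and the median was 0.14 beside 0.22. There 3 members were higher and 0 lower at an unadjusted p under 0.05 (4.58% and 0.392% of all genes). After rescaling 26 were above 0 (49.5%) and the median was -0.09. On that scale 0 members were higher and 2 lower, beside 564 of 12742 genes in either direction. Without the libraries of few genes 37 were above 0 (55.9%) and the median was -0.03. The interaction of dapagliflozin with genotype in Akita mice also gave 0 called members against 0%. Its members' median was -0.03 beside -0.04, with 37 members above 0 (44.1%). At an unadjusted p under 0.05 there were 1 higher and 1 lower (0.777% and 1.15%). Without the libraries of few genes 40 were above 0 (41.2%) and the median was 0.004 beside -0.07.

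Genes that work with the mitochondrial ribosome were taken from lists chosen by function. Of their genes 0 were called in any comparison. Of 7 mitochondrial ribosome proteins that carry other names, the highest were Aurkaip1 (15.8 TPM) and Chchd1 (8.01 TPM), both small-subunit proteins. Among 24 ribosome assembly factors the highest were Dhx30, a helicase (8.32 TPM), and Mettl17 (6.50 TPM). Of 17 translation factors and their partners, Tufm, the elongation factor that delivers tRNAs, averaged 18.6 TPM and Lrpprc, which stabilises mitochondrial messenger RNA, 14.1 TPM.

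Of 20 mitochondrial tRNA synthetases and related enzymes 18 passed the filter. The row of Lars2 averaged 18037 TPM, far above the next, Rars2, at 7.63 TPM, and was kept out of the nuclear protein-coding sum. The mouse gene model of Lars2 is known for a stretch that draws reads of ribosomal RNA, so this value is not read as expression of the synthetase. How much of it such reads make up was not tested. Of 11 genes of mitochondrial transcription and its control 10 passed, led by Esrra (10.4 TPM) and Ppargc1a (10.2 TPM). The 13 mitochondrial messenger RNAs were led by mt-Co1 (1821 TPM) and mt-Cytb (1615 TPM). The ribosomal RNAs of the organelle, which the members' proteins bind, averaged 96917 TPM for mt-Rnr1 and 135369 TPM for mt-Rnr2.

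These lists lay around all genes as the members did. For dapagliflozin in Akita tubules averaged over genotypes, medians were 0.26 for translation factors (16 of 17 above 0), 0.18 for assembly factors (22 of 24), 0.16 for tRNA synthetases (15 of 18), 0.14 for transcription (9 of 10) and 0.25 for mitochondrial messenger RNAs (13 of 13), beside 0.17 for all genes (80.8% above 0). The medians of all of these lay between -0.05 and 0.05 after rescaling. For diabetes averaged over genotypes the mitochondrial messenger RNAs had a median of -0.35 (1 of 13 above 0) and translation factors of -0.18 (2 of 17), beside -0.20 for all genes (15.6% above 0). After rescaling these became -0.06 and 0.04. The other lists are not given for diabetes. Gfm2, a factor that recycles ribosomes, had -0.54 ± 0.16 with diabetes (adjusted p = 0.0874), and Tfb2m, a mitochondrial transcription factor, 0.61 ± 0.22 with dapagliflozin in Akita tubules (adjusted p = 0.143). Both were chosen after their values were seen.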

How the data were processed

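Stranded total RNA libraries from laser-captured tubules were quantified by the authors and deposited as 1 table of TPM per gene, which is a share per library, so sequencing depth is unknown and a pseudocount of 1 TPM limits precision for low genes. The submitters' processing notes name Salmon, MultiQC 1.8 and GRCm38, while for the Salmon version, the annotation release and the use of strand the entry is "not given in the sources used here". Columns existed for 48 of the 54 labelled samples, and the other 6 were not analysed here. The table is described as free of outliers, and the rule for removing them is unknown here. Groups came from the labels, and 0 columns belonged to no sample.

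Genes at 1 TPM or more in at least 5 samples (12742) entered limma 3.58.1 (R 4.3.3, statmod 1.5.0) on log2(TPM + 1). A model with 1 mean for each of 9 groups left 39 residual degrees of freedom. Variances were moderated with a trend and robustly, and two-sided p-values were adjusted by Benjamini-Hochberg within each of 16 comparisons over all tested genes. Genes with an adjusted p below 0.05 count as called. All groups entered the fit so that they share 1 estimate of the spread. Named members were those called (0), the pair with the lowest p in each direction per comparison, the 5 highest and the 5 lowest by mean TPM, the Mrps18 paralogs and Mrps36, and for the wider lists the pair with the highest mean TPM. Members and lists were chosen with earlier results of these data known. Positions and biotypes came from GENCODE on GRCm38 and promoter windows from RefSeq on GRCm38.p6. Alternatives were median-of-ratios, nuclear protein-coding and quantile scaling, a pseudocount of 0.1, no filter or a mean of 5 TPM, the capture number or the genes detected as a covariate, the groups of a comparison alone, and leaving out each library or the 4 with under 9000 genes detected. The scripts were tested on simulated data.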

Additional observations from a re-analysis of the deposited data

Results flagged for a closer look

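In 15 measures and members looked at across the 9 groups, making 135 groups of values, 3 single libraries stood apart from the rest of their group by Dixon's gap test. Chance gives about 1 in 20 of such groups, so 3 of 135 is no more than chance would give. Mrps21 was 54.4 TPM in Akita knockout dapagliflozin replicate 5, where the next highest of 6 libraries had 26.1 TPM. Mrpl39 was 6.91 TPM in Akita wild-type semaglutide replicate 5, where the next of 5 had 3.01 TPM. Mrpl14 was 5.45 TPM in Akita wild-type semaglutide replicate 6, where the next of 5 had 2.36 TPM. The semaglutide values came from different libraries. Replicate numbers are names given in accession order.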

How the results depend on the processing

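No paired analysis was possible because the labels give the samples no replicate numbers or animals that would pair them across groups. Over all alternatives 396 of 401 counts of called members equalled 0 as reported. The other 5 came from leaving out 1 library in the comparison of Akita dapagliflozin averaged over genotypes, where the count ranged from 0 to 2: Akita wild-type vehicle replicate 1, Akita knockout vehicle replicates 1 and 3, and Akita knockout dapagliflozin replicates 2 and 4. The member was Mrps22, Mrps33 or both. Of the values of single named members 1050 kept their direction and side of the threshold, 6 crossed it and 0 reversed. Under the stricter filter 31 members could be tested. The members' median relative to all genes ran from -0.215 to 0.338 over the alternatives. It moved by more than 1 SD between replicates (0.126) in 10 of 401 cases. That SD exceeds the largest such difference with TPM as deposited (0.089, interaction of diabetes with genotype). A change of sign can therefore count as unmoved, and the count does not show stability. Rescaling by the median of ratios turned the sign of the members' median in several comparisons, and leaving out the 4 libraries under 9000 genes brought it near 0 in the diabetes comparisons and in those of dapagliflozin in Akita mice, as given above. Low TPM limits what can be resolved: Mrpl19 and Mrpl47 reached 1 TPM in 17 and 28 of 48 libraries, and 65 to 76 members did so in a single library. The number of replicates and the unknown depth limit precision further.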
